A study of Gallus gallus with 6 samples.

Results

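SLC24A4 and SLC16A12 are the genes of 2 membrane transporters of the solute carrier superfamily that were chosen by their counts, which were higher in chicken basilar papillas infected with RCAS(A)-Wnt9a than in papillas infected with RCAS(A). They are 2 of the 15955 genes in the count table, and both were among the 12133 with enough counts to be tested. Because the choice rested on this contrast, their levels and fold changes are given as a description, without a p-value.

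The basilar papilla is the auditory sensory organ of the chicken (Gallus gallus) inner ear. RCAS(A) is the parent replication-competent avian retrovirus, and RCAS(A)-Wnt9a is the same virus carrying Wnt9a. Virus was given to the right otocyst on embryonic day 3, and the papillas were collected on embryonic day 6. Each group held 3 biological replicates, RCAS(A) replicates 2, 3 and 4 and RCAS(A)-Wnt9a replicates 1, 2 and 3, each from RNA of 24 papillas. The controls were therefore also infected, and no uninfected papilla was analysed here. The share of cells that took up virus is not given in the sources used here. In RNA from whole organs, a change in the number of cells of a type and a change in RNA per cell cannot be told apart.

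SLC24A4 encodes a potassium-dependent sodium and calcium exchanger of the plasma membrane, also called NCKX4. Such exchangers use the sodium gradient going in and the potassium gradient going out to carry calcium out of the cell. In mice NCKX4 helps end the odour response of olfactory neurons, and in humans loss of the gene causes a defect of tooth enamel. SLC16A12 belongs to the monocarboxylate transporter family, but is known for carrying creatine, which cells use to buffer ATP, and a human mutation in it is linked to juvenile cataract.

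The libraries held 19200235 to 23017150 counts. WNT9A, the ligand gene carried by the virus, was counted at 6.87 to 10.3 CPM (counts scaled to library depth, with TMM factors) in the RCAS(A) libraries and at 427 to 1340 CPM in the RCAS(A)-Wnt9a libraries, in the direction of the labels. Of the 12 sensory epithelium markers 4 had a name in the files, and their summed level was 280 to 316 CPM with RCAS(A) and 185 to 212 CPM with RCAS(A)-Wnt9a. Of these SOX2, ISL1 and TECTB fell and PAX2 rose by edgeR's quasi-likelihood test. The 5 named mesenchyme markers of 9 summed to 759 to 805 CPM with RCAS(A) and 865 to 1031 CPM with RCAS(A)-Wnt9a; PRRX1 rose, LUM fell, and TBX18, COL1A2 and ACAN missed the threshold. The 4 striated muscle markers, all of which missed it, summed to 8.63 to 22.1 CPM and 3.25 to 5.57 CPM. Calls of TECTB, PAX2 and LUM ended when any control was left out and that of SOX2 without RCAS(A) replicate 3 or 4, as did TECTB without RCAS(A)-Wnt9a replicate 3, PAX2 without 1 or 2 and LUM without 2 or 3, with edgeR adjusted p of up to 0.110, 0.221, 0.177 and 0.0630 for TECTB, PAX2, LUM and SOX2. Named markers are those that the authors' tables list as changed, which favours sums that differ. Neurons, melanocytes, glia, endothelium and blood had only 1 named marker each. NTRK2, of neurons, was at 90.2 to 110 CPM with RCAS(A) and 64.5 to 73.2 CPM with RCAS(A)-Wnt9a. SLC45A2, of melanocytes, was at 62.4 to 73.5 and 37.3 to 46.2 CPM. CDH19 (glia), FLT1 (endothelium) and TFRC (blood) were higher with RCAS(A)-Wnt9a. Each of these sums and levels differed between the groups without overlap, and their part in the differences described here was not tested.

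SLC24A4 (ENSGALG00000010793) is listed in the files on chromosome 5 of galGal4, from 43921696 to 44004214. The exchanger gene had 995, 701 and 1032 counts in RCAS(A) replicates 2, 3 and 4, and 3063, 3304 and 2428 counts in RCAS(A)-Wnt9a replicates 1, 2 and 3. After scaling its level was 42.9, 32.1 and 50.9 CPM in the RCAS(A) libraries and 138, 147 and 129 CPM in the RCAS(A)-Wnt9a libraries. The groups did not overlap, and the lowest RCAS(A)-Wnt9a library stood 2.53-fold above the highest RCAS(A) library. RCAS(A) replicate 3 was the lowest library of all and RCAS(A)-Wnt9a replicate 2 the highest.

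The mean level of SLC24A4 was 42.0 ± 9.45 CPM (SD, n = 3) with RCAS(A) and 138 ± 9.09 CPM (SD, n = 3) with RCAS(A)-Wnt9a. The fit gave 1.72 on the log2 scale (SE 0.15), that is 3.29-fold. The SD was nearly the same in both groups, so the relative spread differed, with a coefficient of variation of 22.5% in the controls and 6.59% with RCAS(A)-Wnt9a. Counting error alone would give about 3.32% and 1.85% at these counts, so most of the spread between pools was not counting error.

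SLC16A12 (ENSGALG00000006421) is listed on chromosome 6 of galGal4, from 18907921 to 18916250. It was far less abundant, with 58, 76 and 47 counts in RCAS(A) replicates 2, 3 and 4 and 126, 242 and 283 counts in RCAS(A)-Wnt9a replicates 1, 2 and 3. The scaled level was 2.50, 3.48 and 2.32 CPM in the RCAS(A) libraries and 5.67, 10.8 and 15.0 CPM in the RCAS(A)-Wnt9a libraries. The groups did not overlap here either, but RCAS(A)-Wnt9a replicate 1 stood only 1.63-fold above RCAS(A) replicate 3, its nearest control.

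The mean level of SLC16A12 was 2.77 ± 0.62 CPM (SD, n = 3) with RCAS(A) and 10.5 ± 4.68 CPM (SD, n = 3) with RCAS(A)-Wnt9a. The fit gave 1.91 on the log2 scale (SE 0.36), that is 3.76-fold. Within the RCAS(A)-Wnt9a group the highest library was 2.65-fold above the lowest, where SLC24A4 varied 1.14-fold. The coefficient of variation was 22.5% in the RCAS(A) group and 44.6% in the RCAS(A)-Wnt9a group, against a counting error of about 12.9% and 6.79%. Libraries of both genes were separated between the groups with the RCAS(A)-Wnt9a libraries higher, as were those of 9.82% of all tested genes. Of the tested genes, 2.27% passed the threshold of 0.05 on the adjusted p of edgeR's quasi-likelihood test, 1.43% higher and 0.841% lower with RCAS(A)-Wnt9a. Nothing is read from these shares for these genes, because the contrast chose them.

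**Figure D1:**
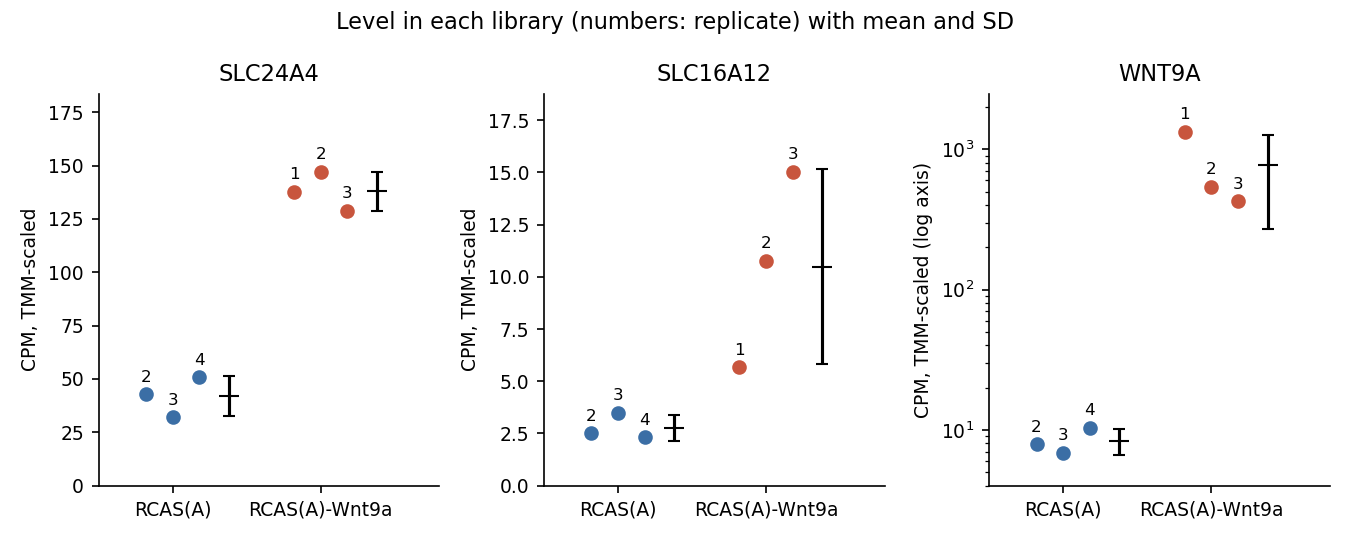
TMM-scaled CPM of SLC24A4, SLC16A12 and WNT9A in each library (points, with the replicate number of the title), with the mean and SD of each group in black; the WNT9A axis is logarithmic. The SLC24A4 libraries with RCAS(A)-Wnt9a sit close together between 129 and 147 CPM, while those of SLC16A12 spread from 5.67 to 15.0 CPM.

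The order of libraries was not the same for all of SLC24A4, SLC16A12 and WNT9A. RCAS(A)-Wnt9a replicate 1 had the most WNT9A (1340 CPM, against 539 and 427 CPM in replicates 2 and 3) and the least SLC16A12 (5.67 CPM), and replicate 3 had the least WNT9A and the most SLC16A12 (15.0 CPM). SLC24A4 followed neither order, since it was highest in replicate 2. Among the controls, SLC24A4 and WNT9A had the same order, lowest in replicate 3 and highest in replicate 4. SLC16A12 had the reverse order there. With 3 libraries a group these orders are given as a description, and a relation between the ligand and the transporters was not tested.

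The ratio of SLC24A4 to SLC16A12 CPM was 17.2, 9.22 and 22.0 in RCAS(A) replicates 2, 3 and 4 and 24.3, 13.7 and 8.58 in RCAS(A)-Wnt9a replicates 1, 2 and 3. These ranges overlapped between the groups.

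With both groups fitted together, both genes were variable for their abundance. The biological coefficient of variation fitted within groups was 13.0% for SLC24A4, above that of 98.8% of the 500 tested genes nearest to it in mean level, whose median was 6.20%. For SLC16A12 it was 27.9%, above 99.0% of its own 500 nearest genes, with a median of 12.5%. The groups were unlike, since the coefficient of variation of SLC24A4 was 22.5% with RCAS(A) but 6.59% with RCAS(A)-Wnt9a. That of SLC16A12 was 22.5% and 44.6%, in the opposite direction. Each of these values rests on 3 libraries, and a difference in spread between the groups was not tested.

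Per transcript length, the authors' pooled FPKM (fragments per kilobase of transcript, scaled to sequencing depth, 1 value per group over all its pools) put SLC24A4 at 7.91 in the RCAS(A) group and 25.8 in the RCAS(A)-Wnt9a group. SLC16A12 was at 1.50 in the RCAS(A) group and 5.90 in the RCAS(A)-Wnt9a group. The authors' confidence bounds for SLC24A4 ran from 6.39 to 9.44 and from 21.4 to 30.2, and for SLC16A12 from 0.83 to 2.18 and from 4.16 to 7.63. Because the contrast chose both genes, the bounds are given as a description, and nothing is read from the gap between the groups. On this scale SLC24A4 was 5.26 times as abundant as SLC16A12 in the RCAS(A) group and 4.37 times in the RCAS(A)-Wnt9a group. The gap was smaller than in CPM, which is not divided by transcript length.

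Among the 13163 listed genes with an FPKM above 0 in both groups, SLC24A4 stood above 38.2% of genes in the RCAS(A) papillas and above 66.3% in the RCAS(A)-Wnt9a papillas. SLC16A12 stood above 20.4% and 33.6%. The exchanger gene thus went from the lower to the upper part of the range of listed genes, and SLC16A12 was in the lower part in both groups. The pooled FPKM come from the same libraries as the counts and are no separate evidence.

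The authors' deposited tables rank the 2 genes differently. In the authors' deposited table from edgeR, with 500 genes, SLC16A12 has the tenth largest log2 fold change, 1.92, and SLC24A4 stands at place 14 with 1.72. In the authors' deposited table from DESeq2, with 437 genes, SLC24A4 is at place 2 with 1.30 (SE 0.09) and SLC16A12 at place 24 with 0.67 (SE 0.10). DESeq2 run on the deposited counts with a prior on the fold changes, a setting chosen after those tables were seen, gave 1.29 and 0.65, and without the prior 1.72 and 1.92. The prior draws fold changes toward 0, here by more for SLC16A12. That gene had both fewer counts and the higher biological coefficient of variation (27.9% against 13.0%).

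**Figure D2:**
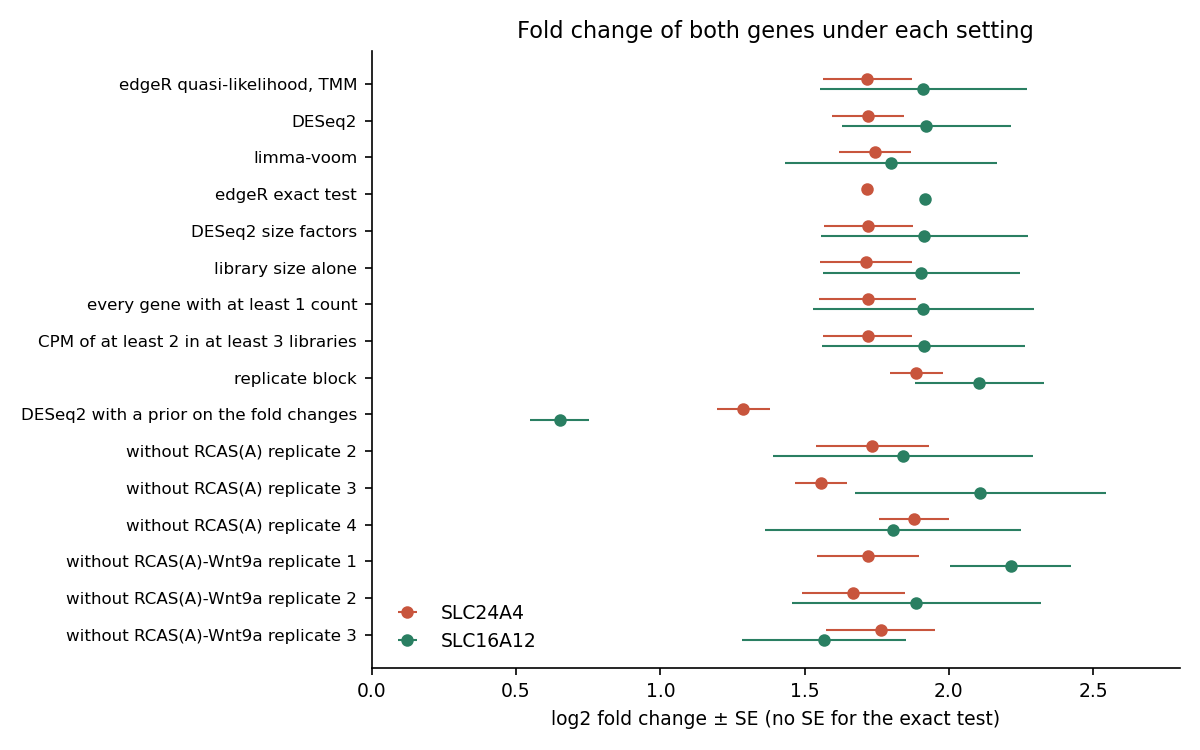
Fitted log2 fold change of SLC24A4 and SLC16A12 (points) with its SE (bars) under each tool, scaling, filter, replicate block and left-out library. Apart from DESeq2 with a prior, SLC24A4 stays between 1.56 and 1.89 and SLC16A12 between 1.57 and 2.21. The replicate block, at 1.89 for SLC24A4, compares only the libraries numbered 2 and 3.

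Of the other solute carriers 8 had a name in the files, all through the authors' tables of changed genes, so their count says nothing about the family as a whole. By edgeR's quasi-likelihood test 2 rose, 2 fell and 4 missed the threshold, against 1.43% higher and 0.841% lower over all tested genes. Their median log2 fold change was 0.30, against -0.0037 over all tested genes. The choice of named genes bears on both the count and the median. Their fold changes ran from -1.10 to 0.97 on the log2 scale. In the authors' deposited table from DESeq2, SLC5A3 stands at 0.69, just above SLC16A12 at 0.67.

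SLC24A2, the potassium-dependent exchanger NCKX2, was the other named gene of the SLC24 family. Its level was 2.07, 2.43 and 2.76 CPM in the RCAS(A) libraries and 4.68, 3.92 and 4.09 CPM in the RCAS(A)-Wnt9a libraries, without overlap. Its log2 fold change of 0.81 (SE 0.20) missed the threshold (edgeR adjusted p = 0.0515), although edgeR's exact test and both other filters on low counts placed it below 0.05. It missed the threshold in all 6 fits with 1 library left out, with an edgeR adjusted p of up to 0.218, without RCAS(A) replicate 2. No other SLC16 gene had a name, nor had any of the 36 genes listed for monocarboxylate and creatine handling, so the other genes of that pathway were not analysed here.

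The 2 other carriers that rose move sodium together with another solute. SLC5A3, a sodium and myo-inositol cotransporter, rose from 12.9 ± 1.30 to 25.2 ± 3.11 CPM (SD, n = 3 each), or 0.97 on the log2 scale with an SE of 0.12 (adjusted p = 0.000612 in edgeR). SLC4A4, a sodium bicarbonate cotransporter and the most abundant of the named carriers by CPM, rose from 232 ± 2.82 to 285 ± 16.2 CPM (0.30 on the log2 scale, SE 0.06, adjusted p = 0.0177 in edgeR). Leaving out any one of the controls, or RCAS(A)-Wnt9a replicate 2, ended the call of SLC4A4, with an adjusted p of up to 0.0975.

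The carriers that fell were SLC9A4 and SLC45A2. SLC9A4, a sodium and hydrogen exchanger, went from 31.9 ± 1.55 to 14.9 ± 3.75 CPM (SD, n = 3 each), or -1.10 on the log2 scale with an SE of 0.16 (adjusted p = 0.00429 in edgeR). SLC9A2, a related exchanger listed next to it on chromosome 1, had a log2 fold change of -0.68 (SE 0.17) and missed the threshold (edgeR adjusted p = 0.0608). Reads of such paralogs may be split between them, which was not tested. SLC45A2, known for its role in melanosomes, went from 67.1 ± 5.72 to 42.6 ± 4.74 CPM (-0.66 on the log2 scale, SE 0.09, adjusted p = 0.00154 in edgeR). SLC26A9, an anion exchanger gene, and SLCO5A1, of the organic anion transporter family, had log2 fold changes of 0.66 and 0.30 (edgeR adjusted p = 0.0913 and 0.0770).

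**Figure D3:**
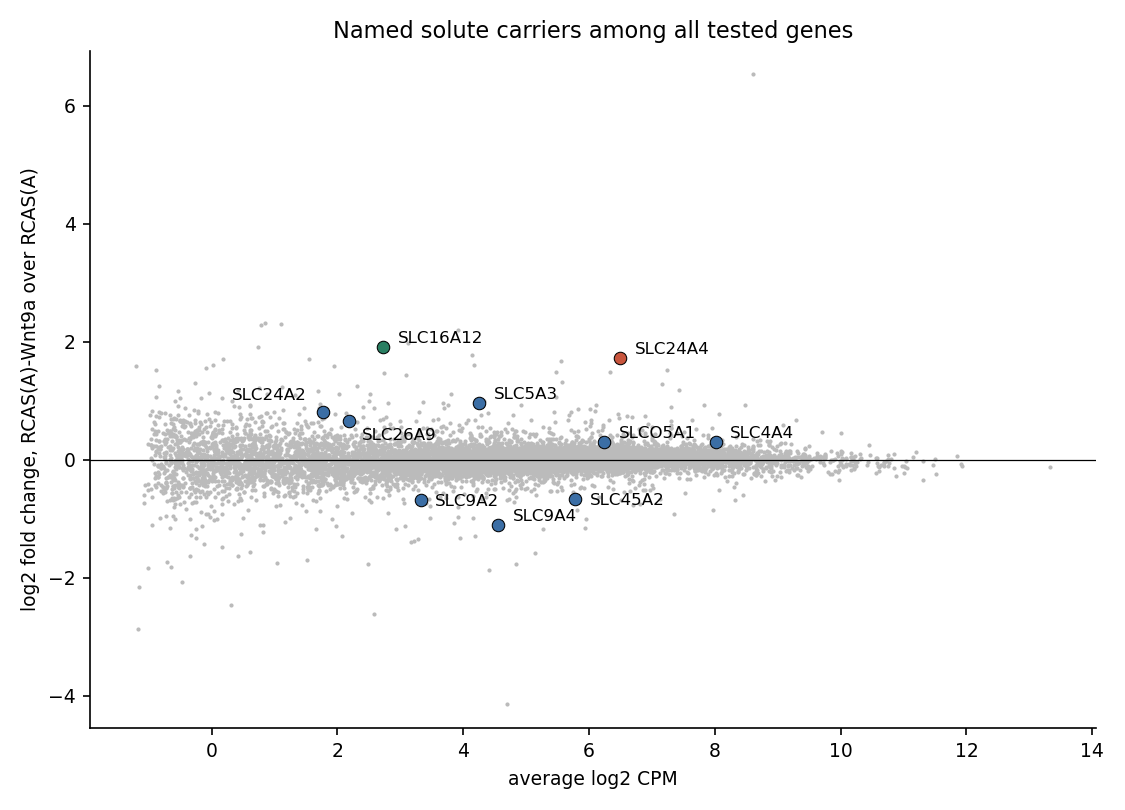
Log2 fold change (RCAS(A)-Wnt9a over RCAS(A)) against average log2 CPM for the 12133 tested genes (grey), with SLC16A12 (green), SLC24A4 (red) and the 8 other named solute carriers (blue). SLC24A4 and SLC16A12, chosen for their rise, lie near 1.72 and 1.91, and the other carriers between -1.10 and 0.97.

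Other named calcium handling genes went both ways. ATP2B2 and CIB2, which passed the test, were lower with RCAS(A)-Wnt9a, while SLC24A2, CACNA1H and ITPR3, which missed the threshold, had log2 fold changes above 0. Of 57 genes listed for sodium, calcium and potassium handling 7 were matched by symbol, again through the authors' tables of changed genes. CACNA1B, a calcium channel gene also on the list, carries the name S6 there and was left out of the counts that follow. The authors' deposited table from DESeq2 gives it a log2 fold change of 0.50 (SE 0.09). By edgeR's quasi-likelihood test 1 was higher, 3 were lower and 3 were short of the threshold, against 1.43% higher and 0.841% lower over all tested genes. The median log2 fold change of the 7 was 0.26, and SLC24A2, at 0.81, was among those short of the threshold. ATP2B2, a plasma membrane pump that also carries calcium out of the cell, went from 31.0 ± 1.28 to 22.8 ± 0.12 CPM (SD, n = 3 each), or -0.45 on the log2 scale (adjusted p = 0.0101 in edgeR). The ATP2B2 call ended without RCAS(A) replicate 2 (adjusted p = 0.0794 in edgeR) or replicate 4 (0.0540). CIB2, a calcium-binding protein of the hair cell transduction complex, had a log2 fold change of -0.60 (edgeR adjusted p = 0.0396), and KCNJ15, a potassium channel gene, one of -1.38 (adjusted p = 0.000282). The CIB2 call ended when RCAS(A) replicate 2, 3 or 4 or RCAS(A)-Wnt9a replicate 2 was left out, with an adjusted p of up to 0.150 in edgeR. The calcium channel gene CACNA1H and the inositol trisphosphate receptor gene ITPR3, which admit or release calcium into the cytoplasm, had log2 fold changes of 0.35 and 0.26 (edgeR adjusted p = 0.0860 and 0.0658). Of the 7 matched genes, the 1 that rose was HCN4, a hyperpolarization-activated cation channel.

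HCN4 was also the gene whose profile was nearest to that of SLC24A4. Likeness was measured as the root mean square difference of log2 CPM over the 6 libraries, each gene centred on its own mean, among 457 genes with a symbol and an average log2 CPM of at least 1. They have a symbol because the authors' tables call them changed. The measure takes in the difference between the groups, on which both members were chosen. Nearness to other genes that rose by a like amount was therefore largely set in advance, and candidates that fell raise the median. HCN4 differed from SLC24A4 by 0.10 on this scale, followed by FGF3 (0.18), NOTUM (0.25), FGF19 (0.26) and TCF7 (0.28), against a median of 0.76 over the candidates. FGF3 and FGF19 encode fibroblast growth factors, NOTUM an enzyme that inactivates Wnt proteins, and TCF7 a transcription factor of the beta-catenin pathway.

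HCN4 stood at 8.20, 6.73 and 8.88 CPM in RCAS(A) replicates 2, 3 and 4 and at 26.3, 31.5 and 23.7 CPM in RCAS(A)-Wnt9a replicates 1, 2 and 3. Its libraries had the same order as those of SLC24A4 in both groups, with RCAS(A) replicate 3 lowest and RCAS(A)-Wnt9a replicate 2 highest. Its log2 fold change was 1.78 (SE 0.14), beside 1.72 for SLC24A4. Both genes were compared over the same libraries, and HCN4 was itself among the genes that rose most.

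The profile of SLC16A12 had no such near match among named genes. The nearest were SCML4 (0.42), a Polycomb-related gene, HS3ST1 (0.48), a heparan sulfate sulfotransferase gene, CNTN6 (0.49) and MDGA2 (0.50), cell surface protein genes of the immunoglobulin superfamily, and FGF3 (0.51), against a median of 0.89 over the candidates. SCML4 stood at 2.07, 3.57 and 1.87 CPM in the RCAS(A) libraries and 4.19, 4.85 and 7.43 CPM in the RCAS(A)-Wnt9a libraries, in the same order of libraries as SLC16A12. The log2 fold change of SCML4, 1.12 (SE 0.28), missed the threshold (edgeR adjusted p = 0.0727). SLC24A4 and SLC16A12 differed by 0.57 from each other, SLC16A12 being the 51st nearest named gene to SLC24A4 and SLC24A4 the 13th nearest to SLC16A12.

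**Figure D4:**
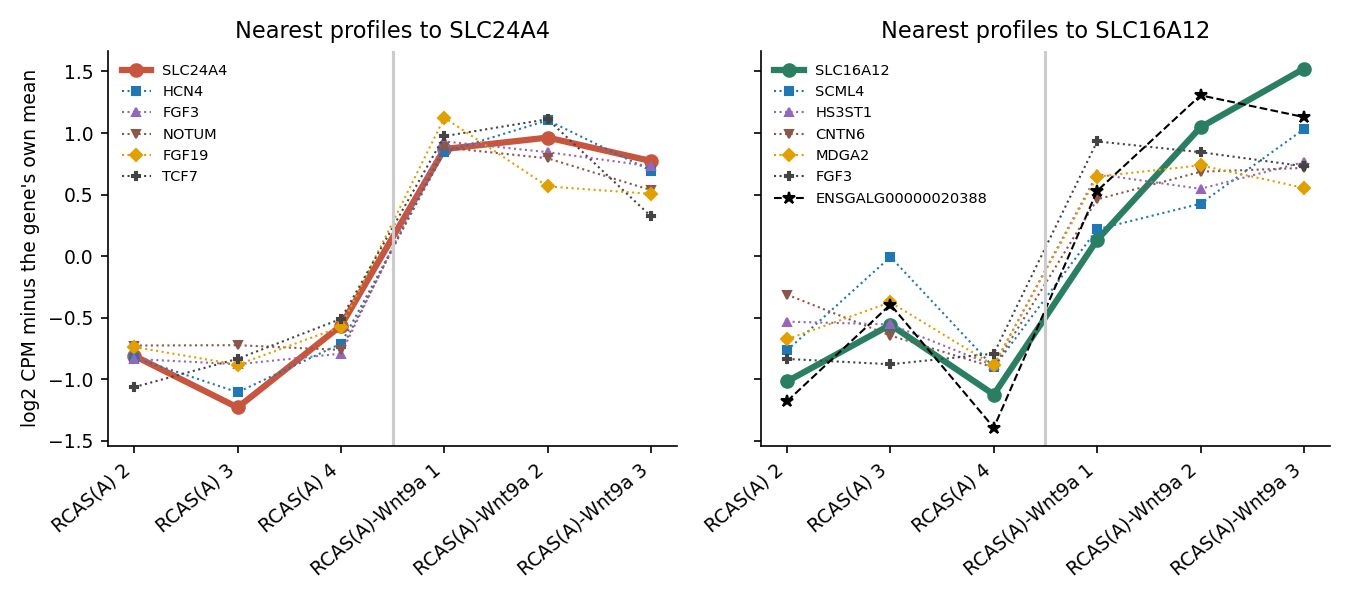
Log2 CPM minus the gene's own mean in each library for SLC24A4 and SLC16A12 (thick lines) and the 5 named genes nearest to each (dotted); the dashed line is ENSGALG00000020388, and the order of libraries within a group has no meaning. HCN4 runs closest to SLC24A4, at 0.10, and ENSGALG00000020388 closest to SLC16A12, at 0.29.

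The genes beside the transporter genes were chosen by position. RefSeq's annotation of the GRCg7b assembly places SLC24A4 between CPSF2 and RIN3, and SLC16A12 between IFIT5 and PANK1, but the files do not pair these names with their identifiers. Of the 6 genes listed nearest to each member, 3 on each side, 9 of 12 had enough counts to be tested. Of the 9, 0 passed the threshold of edgeR's quasi-likelihood test, 0 had an unadjusted p under 0.05, and DESeq2, limma-voom and edgeR's exact test each called 0. As 2.27% of all tested genes were called, 0 of 9 is near the background. Their log2 fold changes ran from -0.42 to 0.06. No listed gene overlapped either member, the nearest tested neighbour of SLC24A4 lay 18.1 kb away with 8.94 ± 0.31 and 8.64 ± 0.55 CPM (SD, n = 3 per group), and an untested gene with 40 counts in all lay 3.79 kb from SLC16A12.

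Within 1 Mb of SLC16A12 27 genes were tested, with 0 called by edgeR's quasi-likelihood test, 3 at an unadjusted p under 0.05, 0 called by DESeq2 and by limma-voom and 1 by edgeR's exact test. Within 1 Mb of SLC24A4 1 of 31 tested genes was called, or 3.23%, near the 2.27% of all tested genes. It was ENSGALG00000020388, named here after its value was seen, which the authors' tables describe as an uncharacterized protein. It is listed on chromosome 5 of galGal4 from 44870910 to 44874670, 867 kb from SLC24A4. It rose from 3.53 ± 1.40 to 13.9 ± 3.64 CPM (SD, n = 3 each), or 1.97 on the log2 scale with an SE of 0.29 (adjusted p = 0.00948 in edgeR). The call was lost without RCAS(A) replicate 2 and without RCAS(A)-Wnt9a replicate 3, with an adjusted p of 0.0512 and 0.0573.

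ENSGALG00000020388 stood at 2.94, 5.13 and 2.52 CPM in RCAS(A) replicates 2, 3 and 4 and at 9.81, 16.9 and 14.9 CPM in RCAS(A)-Wnt9a replicates 1, 2 and 3. RCAS(A) replicate 3 was the highest control and RCAS(A)-Wnt9a replicate 1 the lowest of its group, as for SLC16A12. Its profile differed by 0.29 from that of SLC16A12, the smallest difference among all 10917 other tested genes with an average log2 CPM of at least 1, although SLC16A12 lies on another chromosome. From SLC24A4, on its own chromosome, it differed by 0.56. The measure takes in the difference between the groups, and ENSGALG00000020388 was picked because it was called. Its log2 fold change was 1.97, beside 1.91 for SLC16A12. Nearness to SLC16A12 was therefore largely set in advance, and its place is given as a description only.

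**Figure D5:**
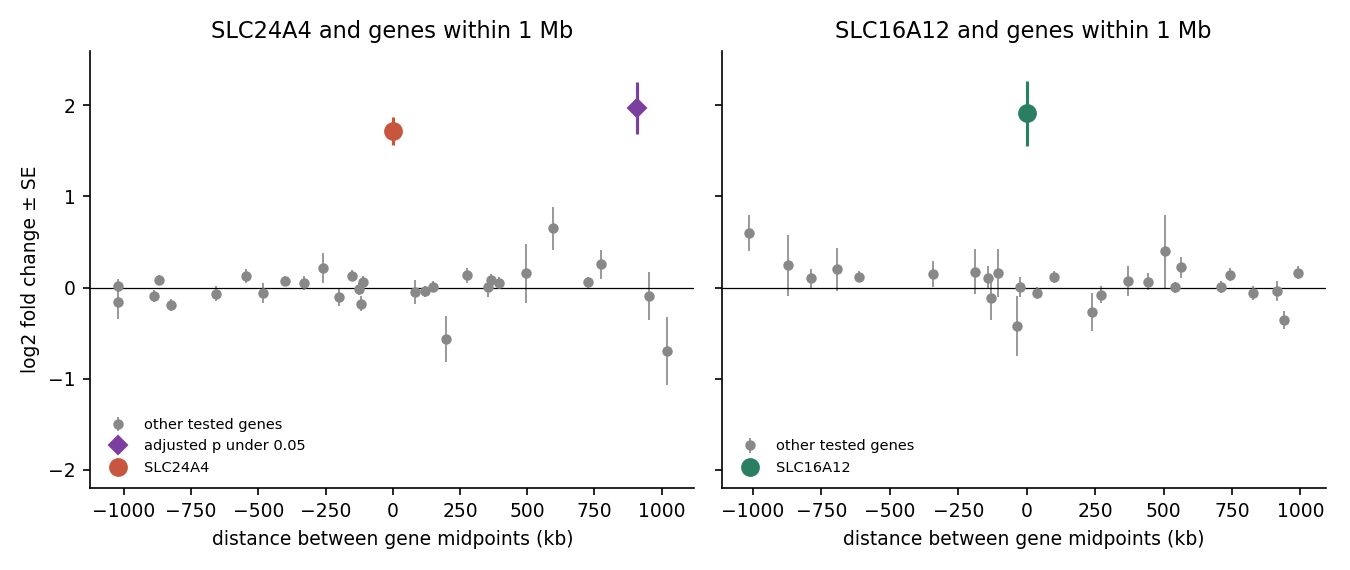
Log2 fold change with its SE for SLC24A4, SLC16A12 and the tested genes within 1 Mb of each, against the distance between gene midpoints in kb; diamonds mark genes with an edgeR adjusted p under 0.05. The tested genes listed nearest to each transporter gene lie between -0.42 and 0.06, and the single diamond is ENSGALG00000020388 at 1.97.

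Targets and feedback genes of beta-catenin signalling, the pathway that Wnt ligands can activate, are given beside both transporter genes as values only. Of the 18 listed genes 14 had a name, because the authors' tables call them changed. Of these 10 were higher, 0 lower and 4 short of the threshold by edgeR's quasi-likelihood test, against 1.43% higher and 0.841% lower over all tested genes, and the choice of named genes bears on this count. Their median log2 fold change was 0.95. Calls of AXIN2, APCDD1, FGF19 and MSX1 ended in at least 1 fit without a control library, with adjusted p of up to 0.0946, 0.0568, 0.0824 and 0.0618 in edgeR, and that of AXIN2 also without RCAS(A)-Wnt9a replicate 2. The log2 fold changes ran from 0.27 for LGR5 to 2.31 for MSX2, both of which missed the threshold (edgeR adjusted p = 0.140 and 0.0567), with AXIN2 at 0.33, NOTUM at 1.49, FGF3 at 1.68, TCF7 at 1.70 and MSX1 at 2.19. SLC24A4 and SLC16A12, at 1.72 and 1.91, lay within this range. The members were chosen for their rise and the named genes were called changed in this contrast. This placing was therefore largely set in advance, and nothing is read from it.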

How the data were processed

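The galGal4 build and the tools TopHat2, DESeq, edgeR and DESeq2 appear in the submitters' processing notes. How reads were counted, with which strand setting and which annotation, is not given in the sources used here. Antisense partners cannot be told apart. What the authors deposited for each library are whole-number counts per Ensembl gene. Per the file headers, the table from DESeq2 gives a mean signal, log2 fold changes, a Wald score and p-values, and the one from edgeR gives log2 fold changes, log2 CPM and p-values. The deposited FPKM are 1 pooled value per group.

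After filterByExpr and TMM scaling, edgeR 4.0.16 in R 4.3.3 tested 12133 genes (glmQLFit, robust, and glmQLFTest, two-sided, Benjamini-Hochberg adjusted). An SE is the size of a log2 fold change divided by the square root of F. A single gene tested by exact permutation of 3 against 3 libraries cannot go below 0.1. In simulated counts of this comparison 20% of 1.2-fold, 68% of 1.5-fold and 88% of 2-fold changes were called, and 15 of 153 calls were false. A gene with a small change can thus easily miss the threshold.

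Symbols came from the authors' tables (493 of 522 genes) and RefSeq (GRCg7b, names only). The members, the lists and the naming rule were chosen with earlier results of these data known. The rule takes both members, WNT9A, each named solute carrier, the 3 genes listed on each side, the 5 nearest profiles and up to 6 list members by smallest p. Alternatives were DESeq2 1.42.0, limma-voom (limma 3.58.1), edgeR's exact test, other scalings and filters, a replicate block and leaving out each library. Windows of 1 Mb, the prior and the comparison of variability were added after the data were seen. Tables and figures used Python 3.11.15, pandas 2.3.3 and matplotlib 3.10.9.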

Additional observations from a re-analysis of the deposited data

How the results depend on the processing

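The log2 fold changes of SLC24A4 and SLC16A12 moved by less than the spread between replicates under every alternative run but the prior. That spread is the pooled SD of log2 CPM within groups, 0.25 and 0.54. Leaving out 1 of 3 libraries can hardly move a group mean that far, so by this measure those fits do not test stability. The prior gave 1.29 and 0.65 and by its construction draws values toward 0. With 1 library left out SLC24A4 ranged from 1.56 (without RCAS(A) replicate 3) to 1.88 (without RCAS(A) replicate 4) and SLC16A12 from 1.57 (without RCAS(A)-Wnt9a replicate 3) to 2.21 (without RCAS(A)-Wnt9a replicate 1). SLC16A12 was thus not above SLC24A4 in every fit. The number of changed genes, 276, became 435 with DESeq2, 439 with the prior, 466 with edgeR's exact test and 146 to 294 with 1 library left out, lowest without RCAS(A) replicates 4 and 2 (146 and 148). Of the 8 other solute carriers 4 passed, against 8 with the exact test, 7 with every gene of at least 1 count, and 3 to 5 with 1 library left out. No tested neighbour passed in any fit, left-out libraries included (0 to 0). The causes were not tested.

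The titles share only the numbers 2 and 3, whose libraries' deviations correlated at -0.0092 and 0.19. Libraries with unlike numbers were not compared, so these values cannot show whether the numbers pair the pools. A fit with the replicate block called 537 genes and gave SLC24A4 1.89 and SLC16A12 2.11. In that fit a library whose number occurs in only one group adds nothing to the contrast. Both fold changes therefore rest on the libraries numbered 2 and 3. SLC16A12 had only 47 to 76 counts in the controls.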
